A study of Mus musculus with 6 samples.

Results

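Aminopeptidases are enzymes that remove amino acids from the amino-terminal end of peptides and proteins. The 8 genes described here are Anpep and 7 genes of related enzymes, Lnpep, Erap1, Rnpep, Npepps, Lap3, Dpp4 and Dpp7. They were taken by name, with every probe set that the platform annotation assigns to exactly 1 of them. Anpep was chosen by its measured difference between low and normal sodium on these same arrays, and the others were added as its relatives by enzyme activity. Of the 8 genes, 7 had such probe sets, 15 in all, out of 18193 genes named by at least 1 probe set. Lnpep, which encodes the insulin-regulated aminopeptidase, had none and was not analysed here.

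The arrays hold total RNA from RAW264.7, a mouse monocyte-macrophage line that is used as a source of osteoclast-like cells. The 3 normal-sodium cultures were in medium with sodium at 137 mmol/l and the 3 low-sodium cultures in medium with 120 mmol/l, for 24 hours, with mannitol holding the diluted medium at an osmolality of 290 mOsm/l. The cytokines that drive osteoclast formation, M-CSF (10 ng/ml) with RANKL (30 ng/ml), appear in the labels in a wording that does not settle whether the normal-sodium cultures received them. The labels speak of 4 biological replicates per medium, of which 3 were analysed here, and all cultures are of a single line.

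The members fall into 3 enzyme classes. Anpep, Lnpep, Erap1, Rnpep and Npepps encode zinc enzymes of one family, known as M1. The Anpep product, also called CD13, sits on the surface of monocytes and macrophages with its catalytic part outside the cell, where it trims small peptides. The Erap1 product works in the endoplasmic reticulum, where it shortens peptides to the length that MHC class I molecules bind. The products of Npepps and Rnpep, puromycin-sensitive aminopeptidase and aminopeptidase B, and the metal-dependent leucine aminopeptidase of Lap3 act mostly on soluble peptides inside or just outside the cell. Dpp4 and Dpp7 encode serine peptidases that remove a pair of residues at a time, Dpp4 (CD26) at the cell surface and Dpp7 in lysosomes and other vesicles.

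Sequence upstream of the annotated start was set out for Anpep and Dpp7, the members whose brightest probe sets were higher on every low-sodium array than on any normal-sodium array. The sequences are from RefSeq (GRCm38.p6), on the minus strand, written 5′ to 3′. That of Anpep is chr7:79848211-79848460 and ends at the base before the start. That of Dpp7 is chr2:25356390-25356582 and ends 58 bases before the start, since the annotated gene reaches that far upstream. Capitals mark matches to GGGCGG, the GC box, in Anpep, and to CACGTG, the E-box core, in Dpp7.
Anpep: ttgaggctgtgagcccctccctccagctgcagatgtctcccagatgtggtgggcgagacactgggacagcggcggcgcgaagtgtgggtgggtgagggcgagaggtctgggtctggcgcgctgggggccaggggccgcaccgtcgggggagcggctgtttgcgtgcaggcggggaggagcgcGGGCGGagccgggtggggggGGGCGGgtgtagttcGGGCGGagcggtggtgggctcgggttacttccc
Dpp7: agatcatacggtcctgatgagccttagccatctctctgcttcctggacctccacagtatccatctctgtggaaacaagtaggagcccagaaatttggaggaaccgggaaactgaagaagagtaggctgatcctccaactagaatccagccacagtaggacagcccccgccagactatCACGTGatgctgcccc

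The Anpep stretch had a GC content of 72.8% and the Dpp7 stretch one of 52.8%. Within 250 bases upstream of the start, on both strands, Anpep held 3 matches to GGGCGG and none to CACGTG or to TGANTCA, the AP-1 motif. Dpp7 held 1 match to each of GGGCGG and CACGTG. Its GGGCGG match, read as CCGCCC from base -59, runs past the end of the printed sequence into the annotated gene. Of all 8 promoters, 6 had GGGCGG, 2 had CACGTG (Dpp7 and Erap1) and 0 had TGANTCA, against 32.7%, 6.02% and 6.75% of 32851 RefSeq promoter windows of that length. The 3 motifs were picked with the sequences and array values known, and a match describes letters only.

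Signals below are log2(intensity + 1) values, and each difference is low minus normal sodium on that scale. The median of all probe sets over the 6 arrays was 5.87, and a probe set whose brighter medium reached it is called bright. A signal is compared only with the same probe set on other arrays, since probe sets differ in how well they bind.

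The replicate 3 arrays of both media stood apart from the other 4 arrays. Spiked labelling transcripts averaged 8.17 and 8.22 there against 9.89 to 10.22 elsewhere, and the 3′ minus 5′ difference of the spiked dap transcript was 3.07 and 2.94 there against 0.96 to 1.06. Of the cell's own transcripts, the 3′ minus 5′ difference of beta-actin was 0.09 and 0.08 on the replicate 3 arrays against 0.20 to 0.29, and that of Gapdh was between -0.36 and -0.22 on all 6 arrays. Values are therefore given within each replicate number as well. Macrophage markers were bright for 9 of 9 genes, with a summed intensity of 103528 to 111295 in normal and 110505 to 122918 in low sodium. Osteoclast markers were bright for 6 of 8 genes and summed to 760 to 2104 in normal and 6160 to 7437 in low sodium. In the planned limma fit 3 had an unadjusted p under 0.05 but 0 passed the adjusted threshold. In a limma fit with a term for replicate 3 and a trended prior 5 were higher, where 3.78% of all genes were. A few genes carried the sum: on low-sodium replicate 3, Atp6v0d2 alone had an intensity of 6156.2 and Ctsk one of 351.9. Means were higher in low sodium for 7 of the 8 genes. Acp5 differed by -0.08, 0.0 and 2.17 log2 within replicates 1 to 3, and the dim Itgb3 by -0.23 on average. Markers of T cells (6 measured), B cells (3), fibroblasts and osteoblasts (6), and epithelium and endothelium (7) each summed to at most 661 on any array. The dendritic list (6) summed to 264 to 482 in normal and 431 to 1154 in low sodium, but only 3 of its genes had higher means in low sodium. Itgax made up much of that sum, with intensities of 269.4, 173.2 and 78.4 against 890.5, 943.8 and 319.6. Flt3 went the other way, with a log2 difference of -1.49.

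Anpep had the largest difference among the members, and each of its values in low sodium lay above each in normal sodium. The log2 signals were 9.06, 9.09 and 8.63 in normal sodium and 10.90, 10.87 and 10.69 in low sodium, replicates 1 to 3. On the linear scale these are intensities of 534.2, 542.2 and 396.3 against 1916.3, 1869.6 and 1651.6. The gap between the media was wider than the spread within either, and in both media the replicate 3 array was the lowest. The means were 8.93 ± 0.25 and 10.82 ± 0.11 (SD, n = 3), a difference of 1.89 or 3.72-fold. Within replicates 1, 2 and 3 it was 1.84, 1.78 and 2.06. Anpep was measured by 1 probe set, so no other probe set of the gene can be set beside it. Of 11380 genes with a bright representative probe set, 39, Anpep among them, had a difference at least this large. The osteoclast marker sums given above were also higher in low sodium. The macrophage marker sums overlapped between the media, with a median difference of 0.1 over the 9 genes. Means were higher in low sodium for 8 of these, and that of Csf1r was lower, by -0.16 on the signed scale. The part of either marker list in the Anpep signal was not tested. In RNA from whole cultures, more cells carrying a transcript and more of it per cell cannot be told apart.

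**Figure D1:**
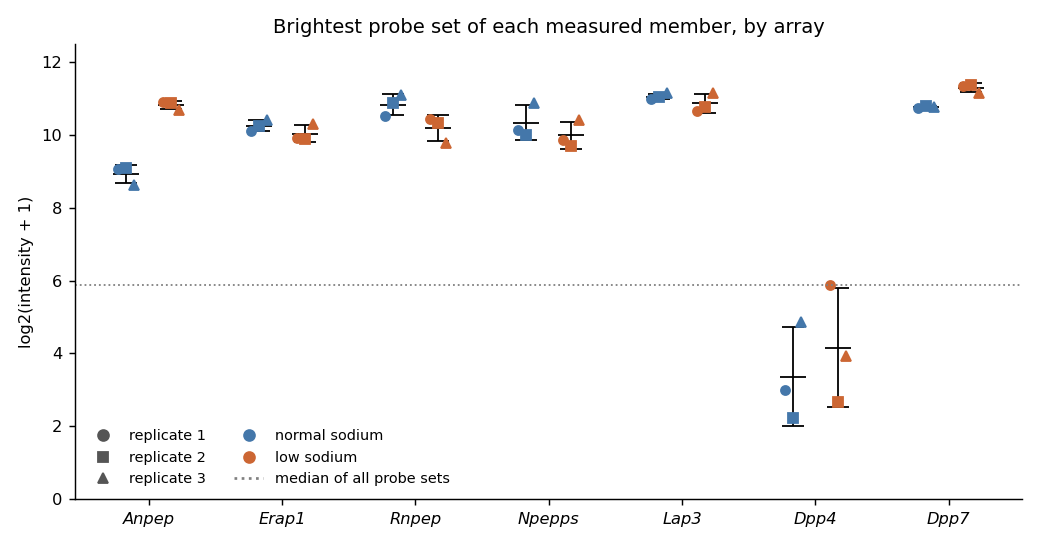
Signal of the brightest probe set of each of the 7 measured members, as log2(intensity + 1), on 3 normal-sodium (blue) and 3 low-sodium (orange) arrays; bars show mean ± SD and the dotted line the median of all probe sets, 5.87. Anpep lies between 8.63 and 9.09 in normal and between 10.69 and 10.90 in low sodium, and Dpp4 is dim in both.

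Dpp7, the vesicular dipeptidyl peptidase, was the other member with separate groups on the same side. Its brightest probe set read 10.75, 10.79 and 10.78 in normal sodium and 11.35, 11.38 and 11.15 in low sodium. The normal-sodium arrays lay close together, so that even the lowest low-sodium array, that of replicate 3, stood clear of them. The difference of the means was 0.52 (10.77 ± 0.02 against 11.29 ± 0.13, SD, n = 3), or 1.44-fold.

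A second bright Dpp7 probe set read 9.61, 9.57 and 9.96 against 10.19, 10.14 and 10.18, with a difference of 0.46 and no overlap either. The dimmest of the 3 read 7.22, 6.07 and 6.58 against 7.47, 8.05 and 7.09, with a difference of 0.91 and overlapping groups. All 3 probe sets were higher in low sodium within each replicate number, by 0.23 to 1.98, and in the brighter 2 of them the difference was smallest in replicate 3 (0.37 and 0.23).

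The 3 measured M1 enzymes other than Anpep had lower means in low sodium. Rnpep, the aminopeptidase B gene, had signals of 10.53, 10.89 and 11.09 in normal sodium and 10.44, 10.33 and 9.78 in low sodium. The groups did not overlap, but the gap between the lowest normal and the highest low value was narrow, and replicate 3 held both the highest normal and the lowest low value. The mean difference was -0.65 (10.84 ± 0.28 against 10.18 ± 0.36, SD, n = 3), with -0.08, -0.56 and -1.31 within replicates 1, 2 and 3. In replicates 1 and 2 alone it was -0.32, so that more of the Rnpep difference came from replicate 3 than from replicates 1 and 2.

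Npepps encodes a cytosolic enzyme that acts on short peptides, among them products of the proteasome. Its brightest probe set read 10.13, 10.01 and 10.88 in normal sodium and 9.87, 9.70 and 10.40 in low sodium. The groups overlapped because replicate 3 was high in both media, by 0.81 and 0.62 over the mean of the other replicates. Within each replicate number the low-sodium array was lower, by -0.26, -0.31 and -0.48 on the signed scale, and the mean difference was -0.35. Without the normal-sodium replicate 3 array that mean difference was -0.08, and without the low-sodium one it was -0.56.

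A second bright Npepps probe set read 9.89, 10.14 and 10.72 against 9.48, 9.63 and 10.12. It gave differences of -0.41, -0.51 and -0.59 within the replicate numbers. Replicate 3 was high in both media here too, by 0.70 and 0.57 over the mean of the other replicates. The differences within replicate numbers of these 2 probe sets had SDs of 0.12 and 0.09 (n = 3). These were smaller than the SDs of 0.34 to 0.47 among arrays of one medium, which include that shift of replicate 3. The remaining probe set was dim in both media (4.36 ± 1.20 and 4.55 ± 0.96, SD, n = 3) and had no steady sign across replicate numbers.

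Erap1, the peptide-trimming enzyme of the class I pathway, differed little. Its brighter probe set read 10.12, 10.24 and 10.42 in normal sodium and 9.92, 9.89 and 10.30 in low sodium. These groups overlapped, and the difference of -0.23 was about as large as the SD of the low-sodium arrays (0.23, n = 3). The other probe set read 8.80, 8.75 and 8.82 against 8.55, 8.57 and 8.29, a difference of -0.32 without overlap. Both were lower in low sodium within each replicate number.

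Lap3, the leucine aminopeptidase gene, read 11.00, 11.03 and 11.14 in normal sodium and 10.67, 10.78 and 11.16 in low sodium. The groups overlapped through the replicate 3 arrays, where the media differed by 0.02, against -0.33 and -0.26 in replicates 1 and 2. Its mean difference was -0.19, which became -0.09 without low-sodium replicate 1 and -0.34 without low-sodium replicate 3.

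Dpp4 was dim on all 4 of its probe sets. Their group means lay between 2.41 and 4.15, and single arrays between 1.02 and 5.89. The brightest probe set read 2.99, 2.22 and 4.87 in normal sodium and 5.89, 2.66 and 3.92 in low sodium, which gives SDs of 1.36 and 1.63 (n = 3). Its difference of 0.79 was smaller than either SD and became 0.42 with a pseudocount of 16, and the 4 probe sets did not share a sign. No Dpp4 difference was measurable at these intensities.

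**Figure D2:**
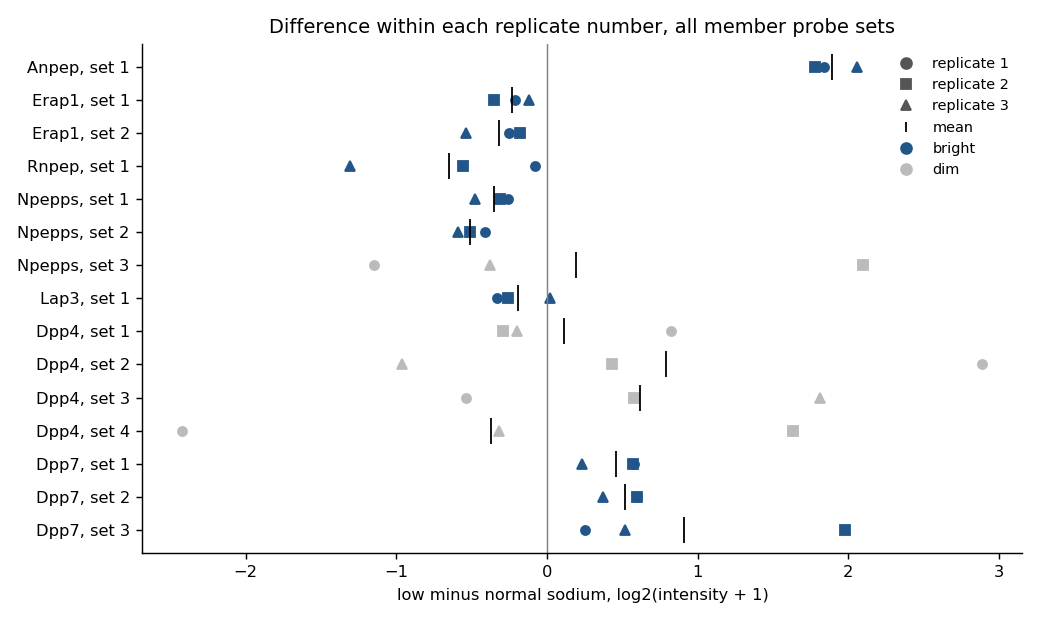
Low minus normal sodium difference in log2(intensity + 1) within replicate 1 (circle), 2 (square) and 3 (triangle) for the 15 member probe sets, numbered within a gene by probe set identifier; the bar is the mean. Bright probe sets (10) keep to one side of 0 except for Lap3 in replicate 3, and the 5 dim ones scatter from -2.42 to 2.89.

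Counted together, 3 of the 15 member probe sets had low-sodium values all above the normal ones, where 6.97% of all probe sets did, and 2 had them all below, where 7.88% did. Among the 6 members with a bright representative probe set, 2 had a higher and 4 a lower mean in low sodium. Of these 6, 5 kept one sign within all 3 replicate numbers, as did 50.6% of bright genes. The median difference over the 7 measured members was -0.19, against -0.01 over all genes. Since the members were chosen with this contrast in view, these counts describe them and test nothing.

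The fit over all probe sets is given for the same members as a description. The planned limma fit, which compares 3 with 3 arrays, called 0 of the 15 member probe sets at an adjusted p under 0.05, with 0.0% of 45037 probe sets called and 2868 at an unadjusted p under 0.05. At the level of genes it called 0 of the 7 members, with 0.0055% of genes called. A limma fit with a term for replicate 3 against the other replicates and a trended prior, a model taken up because earlier counts from these arrays were known, called 3 of the 15, with 4.09% of probe sets called. These were Anpep, the brightest Dpp7 probe set and the second Npepps probe set, and with the replicate 3 term but a constant prior 0 probe sets were called. With genes as the unit it called Anpep and Dpp7, 2 of 7, where 7.6% of genes were called.

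Dpp7 was also the member whose values followed those of Anpep most closely over the 6 arrays (Pearson r = 0.96), while r was -0.78 for Rnpep, -0.69 for Erap1, -0.61 for Lap3 and -0.59 for Npepps. Likeness was also taken among 10440 named genes whose mean over the 6 arrays reached the median of all probe sets. Of these, the 5 most like Anpep were Slfn2, Stam2, Slc11a1, Wdr11 and Ppp3ca, with r between 0.9946 and 0.9972. Slc11a1, the metal transporter of macrophage phagosomes, read 11.69, 11.65 and 11.59 in normal and 12.24, 12.22 and 12.12 in low sodium. Ppp3ca, a catalytic subunit of calcineurin, read 10.37, 10.40 and 10.32 against 10.85, 10.90 and 10.81. The 5 genes most opposed were Pclaf, Zdhhc3, Aurkb, Dffb and Ydjc, with r between -0.9987 and -0.9950. Aurkb, a mitotic kinase, read 11.36, 11.44 and 11.57 against 10.46, 10.49 and 10.65. With 6 arrays in 2 separate groups, a gene whose difference between the media is large beside its spread within them scores high in size. In all, 130 genes reached 0.95 and 172 reached -0.95, so that these names describe a shape and no relation.

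**Figure D3:**
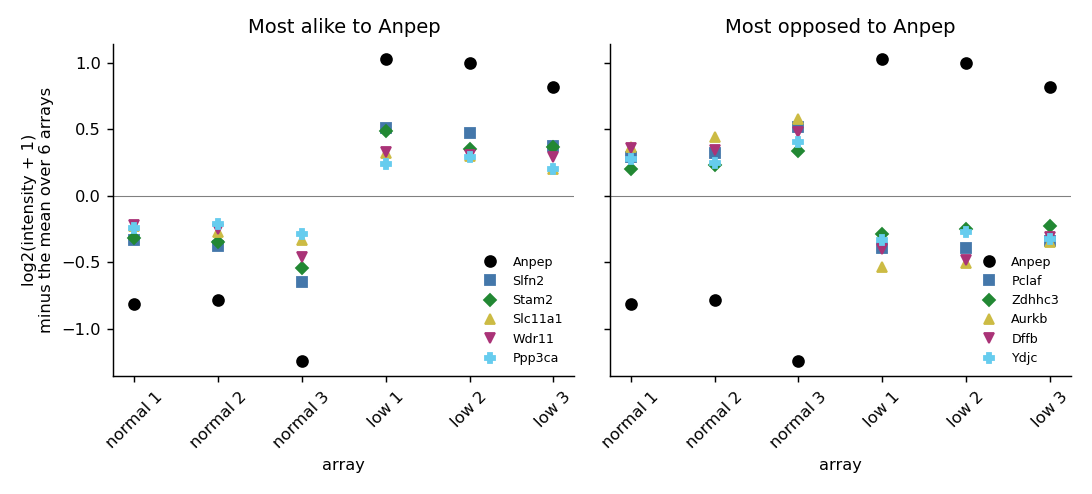
Signals of Anpep (black) and of the 5 genes most alike (left) and most opposed (right) on each of the 6 arrays, as log2(intensity + 1) minus the mean of the gene over the arrays. The differences of these genes, 0.49 to 0.90 on the left and -0.93 to -0.52 on the right, are smaller in size than the 1.89 of Anpep.

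Other genes were taken as 5 lists with 59 entries, of which 56 were measured and 45 were bright. There were 4 lists of peptidases and their relatives, among them Bsg, Dpp6 and Dpp10, which encode no active peptidase. The other list held genes that supply peptides to MHC class I, most of which encode no peptidase. The planned limma fit called 0 of the 56, whose adjusted p ran from 0.610 to 0.996; the unadjusted p was under 0.05 in 2, Xpnpep3 and Cpm. In the fit with the replicate 3 term and the trended prior 4 were higher and 2 lower in low sodium, where 3.78% and 3.81% of all genes were. With the replicate 3 term alone, or the trended prior alone, 0 of the 56 passed. The median difference over all 56 was -0.05.

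The remaining M1 genes showed no difference near the size of that of Anpep among bright members. Of 6 such genes 3 were bright, and 1, Aopep (aminopeptidase O), passed the fit with the replicate 3 term and the trended prior. Its difference in that fit was 0.41 ± 0.07 (SE, limma adjusted p = 0.0199). Aopep read 10.66, 10.63 and 10.20 against 10.98, 11.09 and 10.64, with overlapping groups and adjusted p = 0.719 in the planned limma fit. Lta4h, the leukotriene A4 hydrolase gene, had a difference of -0.12 (planned limma adjusted p = 0.909). Enpep, glutamyl aminopeptidase, at -0.55, and Lvrn at 0.86 were dim in both media.

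Of 13 other genes listed as single-residue aminopeptidases, 12 were bright. Cndp2, which was listed among them but encodes a cytosolic dipeptidase, read 11.81, 11.85 and 12.48 against 12.39, 12.37 and 13.09. It passed the fit with the replicate 3 term and the trended prior at 0.57 ± 0.06 (SE, limma adjusted p = 0.00308). In that fit Blmh, bleomycin hydrolase, had a difference of -0.31 ± 0.07 (SE, limma adjusted p = 0.0345). The groups of Cndp2 and of Blmh overlapped, and neither gene passed the planned limma fit (adjusted p = 0.710 and 0.828). Xpnpep3, a mitochondrial enzyme that acts before proline, had separate groups with a difference of -0.48, and Pgpep1, which removes pyroglutamate, had separate groups with a difference of 0.61. Neither passed either limma fit (adjusted p = 0.610 and 0.658 in the planned one, 0.0732 and 0.145 in the other).

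The list of other dipeptidyl, tripeptidyl and prolyl peptidases held 13 genes, 10 of them bright, with the inactive Dpp6 and Dpp10 among the dim ones. Ctsc and Tpp1 passed the fit with the replicate 3 term and the trended prior. Ctsc, the lysosomal dipeptidyl peptidase also called cathepsin C, read 12.65, 12.71 and 12.63 in normal sodium and 12.37, 12.31 and 12.23 in low sodium. That is a difference of -0.36 ± 0.06 (SE, limma adjusted p = 0.0153), opposite in sign to that of Dpp7, and its planned limma adjusted p was 0.631. Tpp1, a lysosomal tripeptidyl peptidase, differed by 0.37 ± 0.07 (SE, limma adjusted p = 0.0292, planned 0.821). Prep, Prcp and Dpp9 had differences of -0.25, -0.44 and -0.31 and passed neither fit.

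Of 12 other measured genes listed as cell-surface peptidases, 8 were bright, among them Bsg, which encodes no peptidase. Of the 12, 1 passed the fit with the replicate 3 term and the trended prior, where 7.6% of all genes did. That gene, Adam17, the sheddase of TNF, read 12.57, 12.65 and 11.83 against 13.01, 12.94 and 12.76, a difference of 0.55 ± 0.12 (SE, limma adjusted p = 0.0320, planned 0.678). Mmp14, a membrane-bound collagenase, differed by 0.99 without passing either fit. Mme, neprilysin, and Cpm, carboxypeptidase M, were dim in both media, with differences of -1.47 and -1.11 that passed neither fit.

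Of 12 measured genes that supply peptides to MHC class I, the pathway in which Erap1 works, all were bright. Of these, 0 passed either limma fit, where 0.0055% of all genes passed the planned one and 7.6% the other. In the planned fit 0 had an unadjusted p under 0.05. The median difference of the 12 was -0.06, beside the -0.23 of Erap1. B2m, the class I light chain, differed by 0.21 and Tap1, the peptide transporter, by 0.40. Pdia3, a chaperone of the loading complex, differed by -0.30, and Tapbpl, a tapasin relative, by 0.35.

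**Figure D4:**
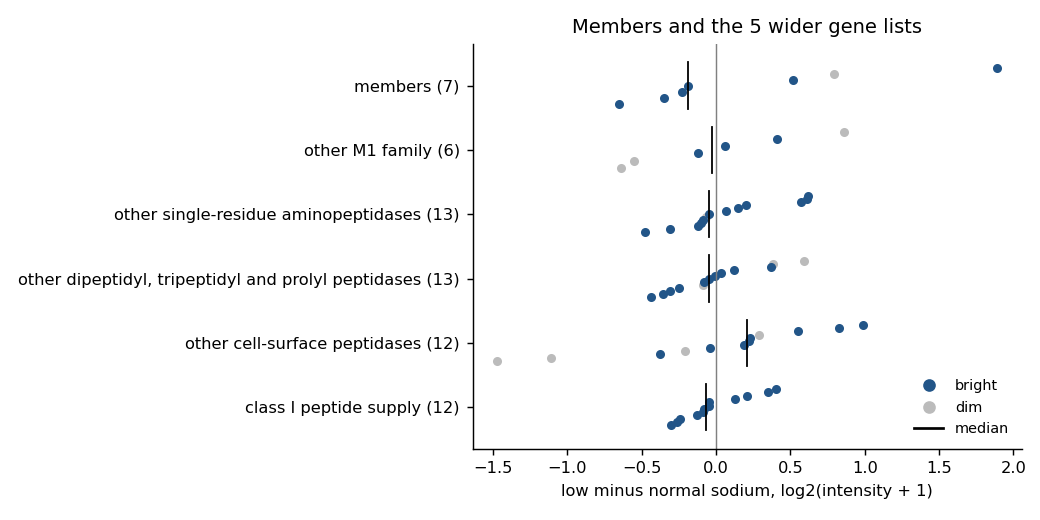
Low minus normal sodium difference in log2(intensity + 1) for the 7 measured members and for 56 other genes, in 4 lists of peptidases and their relatives and 1 of class I peptide supply, 1 point a gene, blue where bright and grey where dim, with the list median as a bar. Anpep, at 1.89, is the point farthest to the right, and the list medians lie between -0.19 and 0.20.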

How the data were processed

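Per the labels, biotin-labelled material from total RNA was hybridised to Affymetrix mouse arrays. The authors deposited a table of 45101 probe sets with linear intensities for 6 arrays. The submitters' processing notes list Partek, with no summarisation method given in what was used here. Each array had the same trimmed mean, 500.0, when the lowest and highest 2% of probe sets were dropped. Intensities were put on the log2 scale after adding 1, and 64 control probe sets were left out, leaving 45037. Of these, 34945 carried 1 gene, 932 several and 9160 none, and symbols were updated through Entrez identifiers for 34741. For each gene the probe set brightest on average over the arrays was used.

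Low was compared with normal sodium by limma 3.58.1 in R 4.3.3 (lmFit, eBayes, two-sided, Benjamini-Hochberg over all features, adjusted p under 0.05). The planned fit was tested on simulated data that held no replicate 3 shift. The fit with the replicate 3 term and the trended prior was not tested in this way. Members, lists and fits were chosen with earlier results of these data known. Of the 5 wider lists, up to 4 genes with the smallest p were named. Every gene that passed the fit with the replicate 3 term and the trended prior was added after its values were seen. For likeness to Anpep, the 5 highest and 5 lowest Pearson correlations over the 6 arrays were named. Deviations from the group means correlated at 0.485, 0.484 and 0.606 between arrays that share a replicate number, which by a rule of over 0.1 counts as pairing, although replicates 1 and 2 correlated as highly across numbers (0.475 and 0.506). The number of arrays limits precision.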

Additional observations from a re-analysis of the deposited data

How the results depend on the processing

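The Anpep difference of 1.89 stayed between 1.75 and 1.97 over 16 alternative settings, but not all of these could move it. With 3 against 3 arrays, the replicate block, the replicate 3 term and the trended prior leave every mean difference as it is. The filter leaves it too, as does the median over probe sets for a gene with 1 probe set, such as Anpep. The differences of Erap1, Rnpep, Npepps, Lap3 and Dpp7 kept their sign in all 16, with Npepps between -0.56 and -0.08, Lap3 between -0.34 and -0.09, Erap1 between -0.36 and -0.15, Dpp7 between 0.46 and 0.60 and Rnpep between -0.81 and -0.32, and that of the dim Dpp4 changed sign in 2 of 15. The planned fit called 0 probe sets, as did the fit with the replicate 3 term alone. With the replicate 3 term and trended prior 1840 were called, 33 with the trended prior alone, 1 with a pseudocount of 16 and 2 with the filter at the 50th percentile. Of genes, 1 was called in the planned fit. The count was 0 with the replicate block, after quantile normalization or median centring, in replicates 1 and 2 only and with the median over probe sets. It was 2 with the replicate 3 term, 1382 with the replicate 3 term and trended prior, 40 with the trended prior, 4 with a pseudocount of 16 and 16 with the filter. It was 3 without low-sodium replicate 3 and 0 without any 1 of the other 5 arrays. Of the 56 genes of the wider lists, 0 passed the planned fit, 0 with the replicate 3 term alone, 0 with the trended prior alone and 6 with both together. The replicate block called 0 probe sets and 0 genes of the wider lists, as the planned fit did. The cause of these changes was not tested. Dim probe sets, such as those of Dpp4, limit what can be read at low signal.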
